A study of Mus musculus with 8 samples.

Results

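RNA from mouse long bones was examined for 42 genes of the skeletal muscle fibre: the contractile proteins of the sarcomere, the proteins that release and take up calcium, muscle enzymes and a pair of muscle ubiquitin ligases. They were listed by gene symbol for their known place in muscle, and all 42 were among the 55421 gene rows of the count table. All 42 also passed the filter on low counts that left 17035 genes for testing, and the lowest count of any of them in a library was 127, so the filter removed none. The samples came from 8 male mice of the C57BL/6 strain, wildtype (WT) and 15 weeks old when treated. On day 0, 4 of them (CTRL) were given saline, the vehicle, and 4 (DoxoR) were given 10 mg/kg of doxorubicin by intraperitoneal injection. Doxorubicin is an anthracycline used in cancer chemotherapy. Hind limb bones were taken on day 30, freed of soft tissue, cut at both ends and spun to remove marrow, and the tibiae and femurs of each mouse gave 1 RNA sample, so the 4 libraries of a group are 4 animals.

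A skeletal muscle fibre contracts when thick filaments of myosin pull on thin filaments of actin, troponin and tropomyosin that are anchored at the Z-disc. Calcium released from the sarcoplasmic reticulum switches the thin filament on through troponin, and a calcium pump and the buffer parvalbumin clear it again. Fast and slow fibres build the same machine from different genes, so that the mix of fast and slow forms of myosin, troponin and light chain marks the fibre type. Muscle tendons insert on long bones, and muscle is the tissue that the cleaning step is meant to take away.

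The bases before the start of 4 of these genes are shown, because they stand for the patterns described below: Acta1, the actin of skeletal muscle; Myh4, the most abundant myosin; Tnni1, a slow troponin that followed another order of libraries than Acta1; and Trim63, the ligase with the highest difference between the groups. Each stretch is the 250 bases before the start in RefSeq on GRCm38.p6, written on the strand of the gene, with capitals for every match on either strand of 5 motifs: TATAAA, the core of a TATA box; CAGCTG, an E-box form bound by MyoD-type factors; CATTCC, the MCAT core; CTAAAAATA, a MEF2 site; and the CArG box, bound by serum response factor. No motif overlapped another in these 4 stretches. Tnni1 has 2 starts in the RefSeq table, and the first along the chromosome is shown. The positions are chr8:123894776-123895025, minus strand for Acta1, chr11:67237562-67237811, plus strand for Myh4, chr1:135799171-135799420, plus strand for Tnni1 and chr4:134314870-134315119, plus strand for Trim63.
Acta1: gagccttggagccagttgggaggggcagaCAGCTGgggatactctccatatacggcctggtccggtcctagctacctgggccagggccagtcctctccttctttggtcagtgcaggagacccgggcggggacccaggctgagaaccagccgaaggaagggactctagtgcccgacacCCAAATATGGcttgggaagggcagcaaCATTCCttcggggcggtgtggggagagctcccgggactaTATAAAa
Myh4: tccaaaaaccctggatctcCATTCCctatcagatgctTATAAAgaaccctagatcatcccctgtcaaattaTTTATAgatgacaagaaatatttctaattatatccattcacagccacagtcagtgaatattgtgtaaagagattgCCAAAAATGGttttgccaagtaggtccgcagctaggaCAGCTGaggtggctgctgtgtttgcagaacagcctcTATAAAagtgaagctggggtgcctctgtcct
Tnni1: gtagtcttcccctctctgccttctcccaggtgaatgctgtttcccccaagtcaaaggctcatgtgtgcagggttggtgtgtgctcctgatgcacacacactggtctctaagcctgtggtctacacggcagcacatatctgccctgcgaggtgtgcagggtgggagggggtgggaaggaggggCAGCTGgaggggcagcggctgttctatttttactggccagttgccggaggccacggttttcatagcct
Trim63: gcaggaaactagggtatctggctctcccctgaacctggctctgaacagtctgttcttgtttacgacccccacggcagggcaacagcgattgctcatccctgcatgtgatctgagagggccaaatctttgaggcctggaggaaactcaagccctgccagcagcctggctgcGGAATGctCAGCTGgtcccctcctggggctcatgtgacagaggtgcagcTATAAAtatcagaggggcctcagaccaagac

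RefSeq promoter rows were found for 33 of the 42 genes by symbol. CAGCTG was present before at least 1 start of 17 of the 33 (51.5%), against 14.7% of 27018 genes with a row. CATTCC was present in 11 (33.3%, against 14.4% of all genes), TATAAA in 7 (21.2%, against 14.3%), the CArG box in 4 (12.1%, against 1.62%) and CTAAAAATA in 2 (6.06%, against 0.537%). Genes of fast fibres and genes of slow fibres both held CAGCTG, in 5 of 10 and in 4 of 9. These are matches of letters, and whether any factor was bound there was not measured.

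The deposited values are expected counts, and library totals ran from 23699525 to 35747083. CPM here is the usual count scaled by library size, with TMM factors (edgeR), and values of a group are given for its libraries 1, 2, 3 and 4 in that order. The bone identity of the samples was visible in markers of osteoblasts and osteocytes (3066 to 6048 CPM in CTRL and 2536 to 8753 CPM in DoxoR, summed over 9 genes), although neutrophil markers (12302 to 22214 CPM in CTRL and 9804 to 20557 CPM in DoxoR) and erythroid markers (17575 to 34845 CPM in CTRL and 13769 to 29674 CPM in DoxoR) were also present in tissue labelled as free of marrow. No 2 libraries agreed within sampling noise.

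The 42 muscle genes took a share of the counts that varied more within the groups than between their means. It was at 4.52, 4.18, 0.972 and 4.45% in CTRL 1, 2, 3 and 4 and at 5.59, 3.14, 2.90 and 5.79% in DoxoR 1, 2, 3 and 4. CTRL 3 stood far below the other 7 libraries, DoxoR 1 and DoxoR 4 were the highest, and the groups overlapped. The group means were 3.53% ± 1.71 in CTRL and 4.36% ± 1.55 in DoxoR (SD, n = 4), and the highest library held 5.96 times the share of the lowest. Without CTRL 3 the DoxoR mean was lower than the CTRL mean by a difference of -0.0269 percentage points. In bulk RNA, fewer muscle fibres on the bone and less of this RNA per fibre cannot be told apart. The plot of the muscle share by library shows these 8 values.

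**Figure D1:**
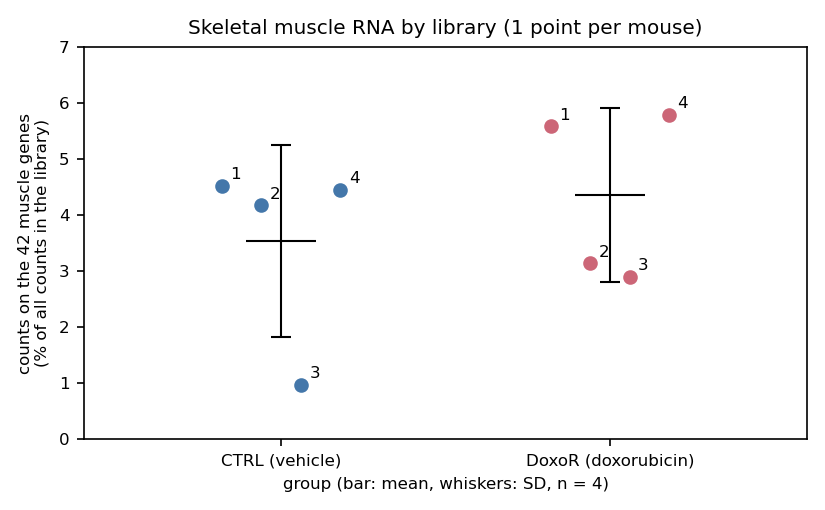
Percent of all counts in a library that fell on the 42 skeletal muscle genes, for the 4 CTRL and 4 DoxoR mice (points, numbered by replicate), with the group mean and SD as bars. CTRL 3, at 0.972%, lies below all other libraries, which range from 2.90% to 5.79%.

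The same library was the lowest for every gene: CPM was lowest in CTRL 3 for 42 of 42, against 18.7% of all genes tested. The median of the other 7 libraries was between 2.00 and 8.58 times the CTRL 3 value, with a median of 4.47 over the 42 genes. At the other end, DoxoR 1 was the highest library for 29 genes, DoxoR 4 for 11 and CTRL 2 for 2. The highest pair of libraries was DoxoR 1 and DoxoR 4 for 29 genes. A list of 44 other skeletal muscle genes, none of them among the 42, took the following shares of the counts: 0.767, 0.710, 0.202 and 0.756% in the CTRL libraries and 0.960, 0.586, 0.523 and 0.979% in the DoxoR libraries. It followed the same order at both ends, and 43 of the 44 were lowest in CTRL 3.

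Levels of different genes were compared per kilobase of the longest coding transcript, as the mean ± SD of 8 libraries in CPM per kilobase. The highest were fast troponin T, Tnnt3 (2787 ± 1264), the fast regulatory light chain Mylpf (2237 ± 1059), Acta1 (2141 ± 976), the fast essential light chain Myl1 (1864 ± 891), fast troponin C, Tnnc2 (1859 ± 849), fast troponin I, Tnni2 (1746 ± 771), the calcium buffer Pvalb (1520.2 ± 722) and muscle creatine kinase, Ckm (1000.3 ± 498). The SDs mostly reflect the muscle content that these genes share, so neighbours were also compared within each library. Tnnt3 was above Mylpf in 7 of 8 libraries, and Tnni2 was above Pvalb, and Pvalb above Ckm, in 8 of 8. Mylpf against Acta1 (5 of 8), Acta1 against Myl1 (5 of 8), Myl1 against Tnnc2 (4 of 8) and Tnnc2 against Tnni2 (6 of 8) had no fixed order. All 14 fast genes ranked between the first and place 27, and the 9 slow genes ranked from place 24 downwards. The lowest were Myh7 (11.2 ± 7.67), the slow myosin heavy chain, and Casq2 (4.13 ± 2.14), the slow and cardiac calsequestrin. Of the fast plus slow counts per kilobase, the slow genes made up no more than 3.30% in any library of either group.

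Among myosin heavy chains, the motors of the thick filament, Myh4, which encodes the fastest form (IIb), was at 4748, 5507, 730.3 and 4795 CPM in CTRL 1, 2, 3 and 4 and at 6220.2, 3232, 2371 and 6558 CPM in DoxoR 1, 2, 3 and 4. Myh1, the IIx form, was at 2567, 904, 290.1 and 1257 CPM in the CTRL libraries and 2860.3, 1339.8, 1035 and 1680.1 CPM in the DoxoR libraries. Myh2, the IIa form, was at 362, 325, 76.5 and 348 CPM in the CTRL libraries and 429.6, 288, 182 and 396 CPM in the DoxoR libraries. All 3 fast genes were lowest in CTRL 3, and the groups overlapped for each. Myh1 split CTRL in a way that Myh4 did not: CTRL 1 held 2.84 times the Myh1 of CTRL 2 and 0.862 times its Myh4. Myh7, the slow form, was at 42.2, 115, 21.6 and 47.9 CPM in the CTRL libraries and 32.2, 68.9, 65.2 and 164 CPM in the DoxoR libraries. Its order of libraries was another one: DoxoR 4 and CTRL 2 were high, and DoxoR 1, the highest library for most muscle genes, was among the lowest.

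As a percent of the 4 myosins per kilobase, Myh4 made up 61.8, 80.6, 65.6 and 74.6% in the CTRL libraries and 65.4, 65.8, 65.2 and 74.8% in the DoxoR libraries. Myh1 made up 33.0, 13.1, 25.8 and 19.3% in the CTRL libraries and 29.8, 27.0, 28.1 and 19.0% in the DoxoR libraries. CTRL 2 had the highest share of Myh4 and the lowest of Myh1, and CTRL 1 the reverse. Myh2 stayed between 4.47% and 6.79%, and Myh7 between 0.327% and 1.87%. Myh1, Myh2 and Myh4 lie side by side on chromosome 11 of GRCm38 (GENCODE M21), at chr11:67200052-67224575, chr11:67171027-67197517 and chr11:67238029-67260446, all on the plus strand. They also share sequence: 23.0% of the 50-base windows of Myh1, 22.3% of those of Myh2 and 13.3% of those of Myh4 occur in another of the 42 genes, so the division of reads among these 3 genes is uncertain.

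The light chains stabilise and tune the myosin neck. Mylpf, the fast regulatory chain, was at 1649, 2344, 414 and 1443 CPM in the CTRL libraries and 2777, 1119.9, 1342 and 2620.4 CPM in the DoxoR libraries. Myl1, the fast essential chain, was at 1903, 2481, 459.7 and 1735 CPM in the CTRL libraries and 3507, 1396, 1631 and 3026 CPM in the DoxoR libraries. Both were lowest in CTRL 3 and highest in DoxoR 1 and DoxoR 4. Myl2, the slow and ventricular regulatory chain, was at 38.0, 99.8, 21.3 and 31.0 CPM in the CTRL libraries and 45.8, 44.0, 54.0 and 134 CPM in the DoxoR libraries. Myl3, its essential counterpart, was at 35.9, 80.6, 11.8 and 30.3 CPM in the CTRL libraries and 43.4, 40.0, 26.4 and 63.1 CPM in the DoxoR libraries. For Myl2 the high libraries were DoxoR 4 and CTRL 2, and Myl3 was highest in CTRL 2. The light-chain differences between groups (log2 of DoxoR over CTRL ± SE) were 0.43 ± 0.48, 0.54 ± 0.48, 0.55 ± 0.51 and 0.13 ± 0.49 in that order, the last being the lowest of the 42. Myosin-binding protein C of slow fibres (Mybpc1) and of fast fibres (Mybpc2) ranged from 66.9 to 689.9 CPM and from 116 to 1032 CPM.

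On the thin filament, Acta1 was at 3363, 3164, 599 and 3649.8 CPM in the CTRL libraries and 5146, 2353, 2127 and 4370.5 CPM in the DoxoR libraries. CTRL 3 was the only CTRL library below the DoxoR range, and the other 3 CTRL libraries lay inside it. The fast troponins are the calcium sensor Tnnc2, the inhibitor Tnni2 and the tropomyosin-binding Tnnt3. Tnnt3 was at 3078, 3809, 698 and 3134 CPM in the CTRL libraries and 4758, 2267, 1860.5 and 4454 CPM in the DoxoR libraries. Tnnc2 was at 1306, 1547, 299.9 and 1336 CPM in the CTRL libraries and 2177, 994, 858 and 1895 CPM in the DoxoR libraries. Tnni2 was at 1389, 1704, 343 and 1312 CPM in the CTRL libraries and 2151, 1056, 848 and 1925 CPM in the DoxoR libraries. These 3 genes shared their lowest library, CTRL 3, and their highest, DoxoR 1, with Acta1, and the groups overlapped for each. The slow forms were scarcer and varied otherwise. Tnni1 was at 10.3, 36.4, 6.78 and 7.29 CPM in the CTRL libraries and 10.1, 16.5, 20.4 and 43.9 CPM in the DoxoR libraries. Tnnt1 was at 37.3, 91.0, 22.6 and 25.8 CPM in the CTRL libraries and 23.6, 45.2, 50.02 and 90.8 CPM in the DoxoR libraries. Tnnc1, also the cardiac form, was at 20.3, 56.1, 11.2 and 14.8 CPM in the CTRL libraries and 17.1, 26.2, 31.4 and 59.7 CPM in the DoxoR libraries. All 3 slow troponins were highest in CTRL 2 and DoxoR 4, and CTRL 2 held 4.997, 3.52 and 3.78 times the level of CTRL 4 for Tnni1, Tnnt1 and Tnnc1. Nebulin (Neb), the ruler of thin filament length, ranged from 286 to 2250.0 CPM and the tropomyosin Tpm2 from 317 to 2012 CPM.

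At the Z-disc and along the sarcomere, titin (Ttn), the elastic protein that spans from Z-disc to M-line, was at 3810.2, 3695, 802 and 3514 CPM in the CTRL libraries and 4342, 2393, 2029 and 4272 CPM in the DoxoR libraries. Desmin (Des), the intermediate filament that ties neighbouring Z-discs together, was at 779.7, 802, 189 and 734 CPM in the CTRL libraries and 1212, 616, 503 and 1137 CPM in the DoxoR libraries. Telethonin (Tcap), which caps titin at the Z-disc, was at 321, 339.6, 83.6 and 337 CPM in the CTRL libraries and 525, 261, 217 and 515 CPM in the DoxoR libraries. In these 3 genes the CTRL libraries other than CTRL 3 lay close together, and DoxoR spread on both sides of them. Ldb3, a Z-disc scaffold, was at 215, 211, 47.0 and 204 CPM in the CTRL libraries and 327, 179.7, 138 and 310.4 CPM in the DoxoR libraries. Actn2, an alpha-actinin that cross-links actin, was at 173, 147, 30.7 and 123 CPM in the CTRL libraries and 238, 131, 96.9 and 187 CPM in the DoxoR libraries. Myoz2, the calsarcin of slow fibres, was at 35.7, 53.7, 12.9 and 33.5 CPM in the CTRL libraries and 56.1, 35.3, 36.1 and 60.6 CPM in the DoxoR libraries. Myoz2 had the smallest unadjusted p of the 42 genes, 0.231, with a log2 difference of 0.47 ± 0.37 and an adjusted p of 0.856 (edgeR). The remaining genes of this group, Actn3, Myot, Myoz1 and Xirp2, were likewise lowest in CTRL 3.

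Among genes of calcium handling, parvalbumin (Pvalb) was at 1430.4, 1988, 337 and 1270.5 CPM in the CTRL libraries and 2461, 1079, 1073 and 2244 CPM in the DoxoR libraries. CTRL 2 lay above the other CTRL libraries, inside the DoxoR range. The fast calcium pump Atp2a1 ranged from 355 to 4541 CPM, the release channel Ryr1 from 73.1 to 584 CPM and its voltage sensor Cacna1s from 33.7 to 267 CPM. Casq1, the fast calsequestrin that stores calcium, ranged from 51.9 to 435 CPM, and Casq2 from 3.22 to 20.9 CPM. The 6 log2 differences of this group lay between 0.36 and 0.52.

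Of the metabolic genes, Ckm, which buffers ATP, was at 3061, 3169, 502 and 2758 CPM in the CTRL libraries and 4480.1, 1914, 1633 and 4426 CPM in the DoxoR libraries. Myoglobin (Mb), the oxygen store, was at 941, 776, 259 and 753 CPM in the CTRL libraries and 1325, 623, 519 and 913 CPM in the DoxoR libraries. Ampd1, the AMP deaminase of muscle, was at 101, 113, 13.1 and 112 CPM in the CTRL libraries and 179, 82.1, 66.1 and 186 CPM in the DoxoR libraries. The highest library held 8.92, 5.13 and 14.2 times the level of CTRL 3 for Ckm, Mb and Ampd1. The muscle enolase Eno3 and the glycogen phosphorylase Pygm ranged from 148 to 1158 CPM and from 86.2 to 942 CPM.

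The muscle ubiquitin ligases Trim63 (MuRF1) and Fbxo32 (atrogin-1) tag muscle proteins for the proteasome and are known to be induced in atrophy. Trim63 was at 74.5, 63.0, 10.6 and 37.5 CPM in the CTRL libraries and 138, 61.5, 35.04 and 47.0 CPM in the DoxoR libraries. DoxoR 1 stood above the next library, CTRL 1, and DoxoR 4, which held a like share of muscle counts, was at 0.340 times its Trim63. The log2 difference was 0.60 ± 0.57, the highest of the 42 (adjusted p = 0.860, edgeR). It was 0.028 without DoxoR 1 and 0.23 without CTRL 3. Fbxo32 was at 120.4, 106, 41.6 and 85.9 CPM in the CTRL libraries and 170.4, 110.5, 66.1 and 131 CPM in the DoxoR libraries. The log2 difference of Fbxo32 was 0.43 ± 0.35 (adjusted p = 0.856, edgeR), and it was 0.15 without CTRL 3. As a percent of the counts on the 42 genes, Trim63 was at 0.166, 0.135, 0.120 and 0.0905% in the CTRL libraries and 0.213, 0.199, 0.132 and 0.0789% in the DoxoR libraries. Fbxo32 was at 0.269, 0.228, 0.471 and 0.207% in the CTRL libraries and 0.262, 0.358, 0.248 and 0.219% in the DoxoR libraries. On that scale the 2 ligases differed in which libraries were high, Trim63 in DoxoR 1 and Fbxo32 in CTRL 3. In CTRL 3 the CPM of Fbxo32 was its lowest, and the counts on the 42 genes were also lowest there. How much of either ligase came from cells other than muscle was not tested.

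No member passed the test between the groups. In edgeR's quasi-likelihood test with Benjamini-Hochberg adjustment over all 17035 genes, 0 of 42 had an adjusted p under 0.05, as did 0% of all genes, and the adjusted p-values of the 42 lay between 0.856 and 0.958. At an unadjusted p under 0.05 there were 0 of 42, against 5.36% of all genes. DESeq2, which called 0.17% of all genes, called 0 of the 42, and limma-voom called 0. The groups overlapped in CPM for all 42, while every DoxoR library was above every CTRL library for 1.64% of all genes. All 42 log2 differences were above 0, against 57.2% of all genes, with a median of 0.41 beside 0.036 over all genes. The genes are not independent of each other here, since they share the muscle content of each library.

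All 42 also stayed above 0 under the other scalings, filters and tools, but for part of them the direction depended on CTRL 3. Without it, 29 of the 42 were above 0 and 13 below, with a median of 0.058. By role, the medians with all 8 libraries and without CTRL 3 were 0.34 and -0.018 for the 4 myosin heavy chains, 0.33 and -0.0093 for the 9 thin filament genes, and 0.47 and 0.12 for the 10 genes of the Z-disc, titin and desmin. They were 0.44 and 0.078 for calcium handling, and 0.39 and 0.016 for metabolism and myoglobin. For light chains and myosin-binding protein C they were 0.44 and 0.077, and for the 2 ubiquitin ligases 0.52 and 0.19. The plot of the differences shows each gene with its SE.

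**Figure D2:**
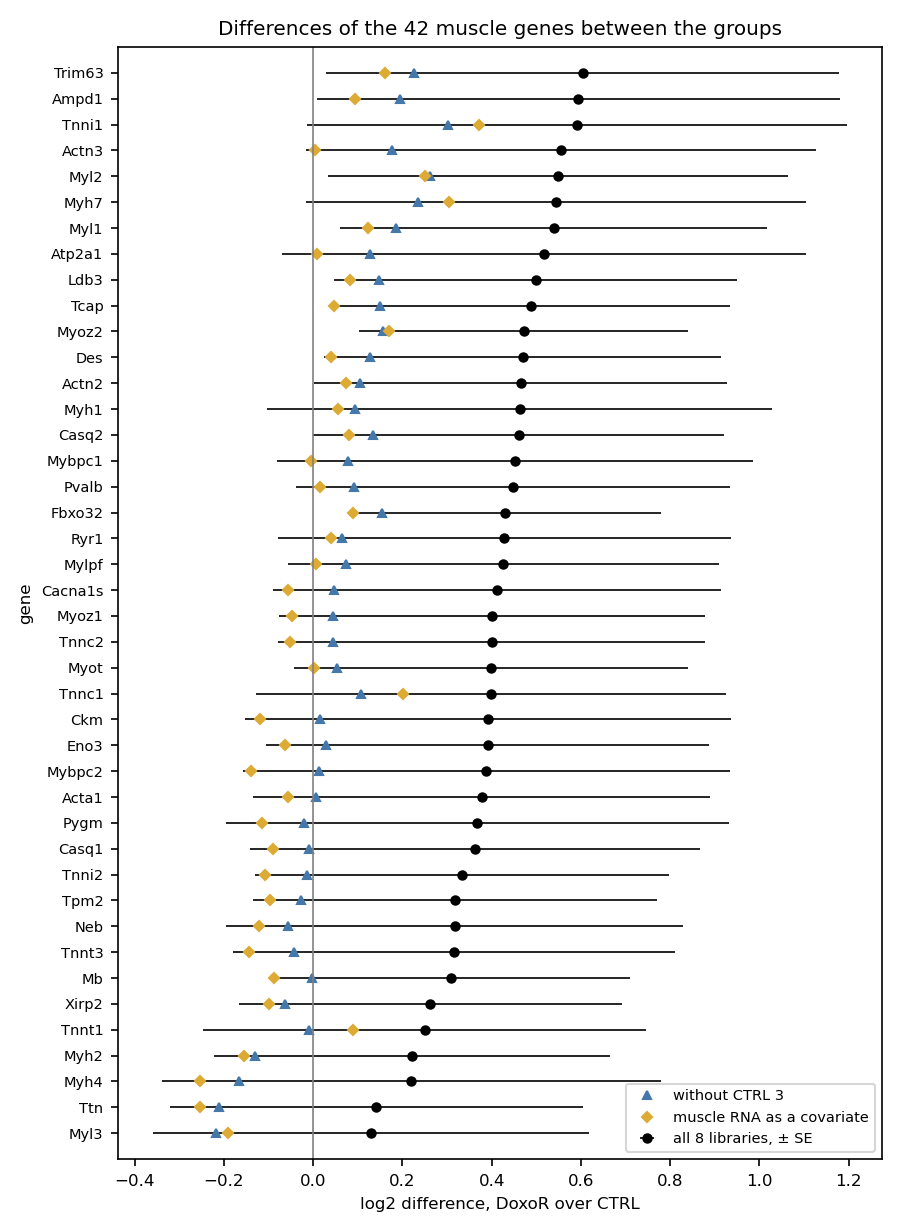
Log2 difference of DoxoR over CTRL for the 42 muscle genes: edgeR estimate with its SE from all 8 libraries (black circles), without CTRL 3 (blue triangles) and with the muscle RNA of each library as a covariate (yellow diamonds). All black circles lie above 0, from 0.13 to 0.60, whereas the triangles and diamonds lie on both sides of 0.

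When the muscle RNA of each library, measured by the mean log2 CPM of 24 muscle genes that are not among the 42, was added as a covariate, 22 genes were above 0 and 20 below. The median was 0.0034 and 0 passed the threshold (edgeR). The smallest unadjusted p was that of Ttn, 0.0771 (adjusted 0.917), with a log2 difference of -0.25 ± 0.13. As a percent of the counts on the 42 genes, Ttn was at 8.50, 7.92, 9.09 and 8.48% in the CTRL libraries and 6.68, 7.75, 7.63 and 7.17% in the DoxoR libraries. Every CTRL library was above every DoxoR library. Ttn, named here after its values were seen, was the only one of the 42 without overlap on this scale, where 0 of the 44 other muscle genes described below lacked it. The share over all genes tested was 0.358%, which is no like background, since dividing by muscle counts adds the muscle variation to genes of other tissues, and nothing is read from it. The covariate fit gave Myh4 the next smallest unadjusted p, 0.111, with a log2 difference of -0.25 ± 0.14.

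Dividing by the counts on the 42 genes separated a second pattern from the amount of muscle. Over the 8 libraries, the highest share was between 1.17 and 2.96 times the lowest for the 14 fast genes (median 1.40) and between 1.67 and 7.06 times for the 9 slow genes (median 3.42). The steadiest of the 42 was Eno3, at 1.13 times, and the most variable was Tnnt1, at 7.06 times. Of the fast genes, Myh1 varied most. The divisor itself held far more fast than slow counts (2.37% and 0.0745% of all counts in CTRL 1), which steadies the fast shares as a set. In CPM the slow genes did not vary more: the median ratio of highest to lowest library was 6.48 for slow and 7.46 for fast genes. The paired heat maps show CPM and this share next to each other.

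**Figure D3:**
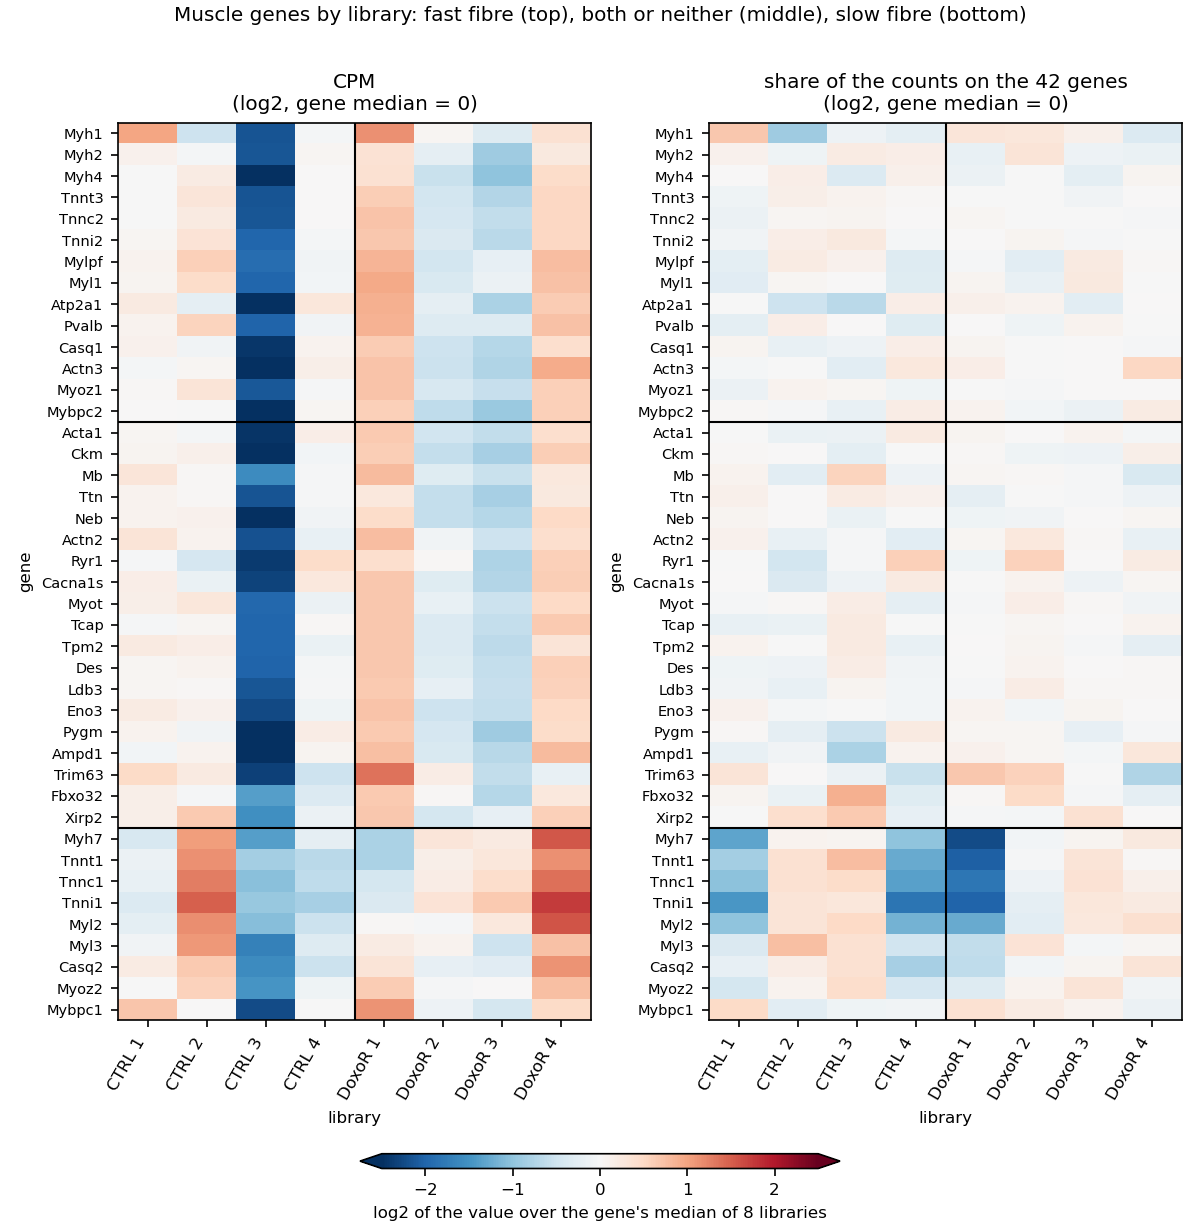
Heat maps of the 42 muscle genes (rows, grouped as fast fibre, both or neither, and slow fibre) in the 8 libraries (columns), as CPM (left) and as the share of the counts on the 42 genes (right), each as log2 relative to the median of the gene. On the left CTRL 3 is low for all 42 genes; on the right the slow genes apart from Mybpc1 are low in CTRL 1, CTRL 4 and DoxoR 1.

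Most slow genes were high or low in the same libraries within this mix. Above their own 8-library median were 1, 8, 8 and 0 of the 9 slow genes in CTRL 1, 2, 3 and 4 and 1, 3, 8 and 7 in DoxoR 1, 2, 3 and 4. Within the mix, CTRL 1, CTRL 4 and DoxoR 1 were therefore low in slow transcripts, and CTRL 2, CTRL 3, DoxoR 3 and DoxoR 4 high. Of all counts, by contrast, slow genes made up the least in CTRL 3 (0.0197%), and they made up 0.0801% in DoxoR 1. The share within the mix was lowest in DoxoR 1 for 6 of the 9 and highest in CTRL 3 for 5. Mybpc1, listed as slow, went another way, with its highest share in CTRL 1. A pair of libraries with like amounts of muscle show the contrast: DoxoR 1 and DoxoR 4 had 5.59% and 5.79% of counts on the 42 genes, yet DoxoR 4 held 5.10 times the Myh7, 4.33 times the Tnni1 and 3.85 times the Tnnt1 of DoxoR 1. Over the 9 slow genes that ratio lay between 0.636 and 5.10, with a median of 2.92. Over the 14 fast genes it lay between 0.587 and 1.16, with a median of 0.917. The ranges overlapped, since the slow genes Myoz2 (1.08) and Mybpc1 (0.636) lay inside the range of the fast genes.

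Pairs of genes that do the same job in slow and fast fibres gave the slow form, per kilobase, as a percent of the pair. Of Tnni1 plus Tnni2, Tnni1 made up 0.491, 1.41, 1.303 and 0.370% in the CTRL libraries and 0.314, 1.03, 1.58 and 1.4997% in the DoxoR libraries. Of Tnnt1 plus Tnnt3, Tnnt1 made up 1.22, 2.38, 3.20 and 0.833% in the CTRL libraries and 0.503, 1.99, 2.67 and 2.04% in the DoxoR libraries. In both pairs CTRL 1, CTRL 4 and DoxoR 1 were the 3 lowest libraries. Of Tnnc1 plus Tnnc2, Tnnc1 made up 1.48, 3.399, 3.51 and 1.07% in the CTRL libraries and 0.757, 2.499, 3.44 and 2.97% in the DoxoR libraries. Of Myl2 plus Mylpf, Myl2 made up 1.95, 3.54, 4.25 and 1.82% in the CTRL libraries and 1.40, 3.27, 3.35 and 4.21% in the DoxoR libraries. The same 3 libraries were the lowest for these pairs, for Myh7 among the 4 myosins, and for Casq2 against Casq1 and Myoz2 against Myoz1, but not for Mybpc1 against Mybpc2.

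**Figure D4:**
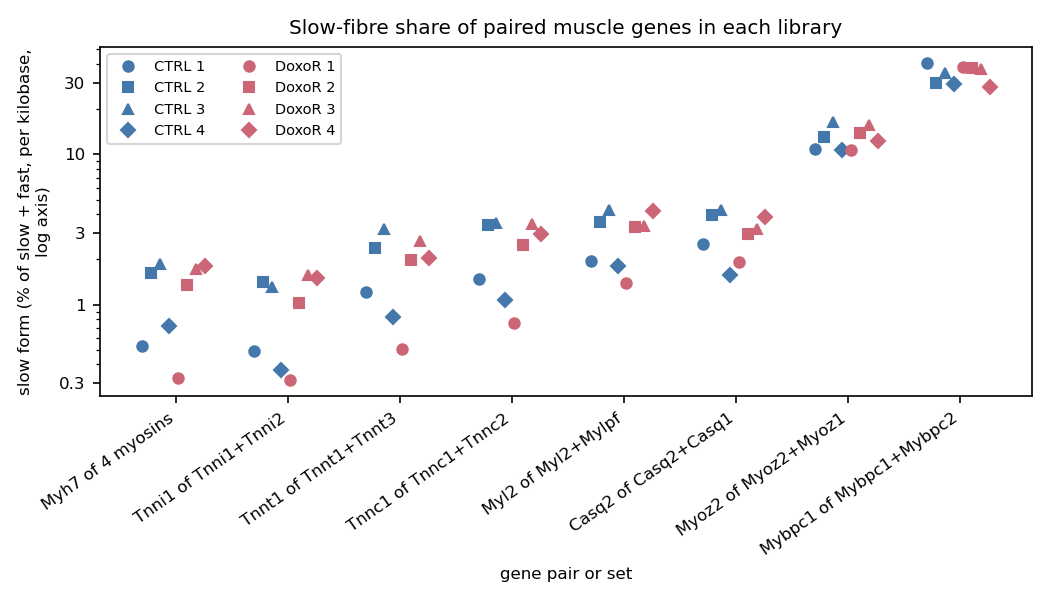
Slow form as a percent of slow plus fast, per kilobase (log axis), for Myh7 among 4 myosins and for 7 slow and fast gene pairs, 1 point per library (blue CTRL, red DoxoR, symbols by replicate). In every set but the last, CTRL 1, CTRL 4 and DoxoR 1 are the 3 lowest points.

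Over all fast and slow genes per kilobase, the slow share was at 2.13, 2.93, 3.30 and 1.65% in the CTRL libraries and 1.58, 2.74, 2.93 and 2.77% in the DoxoR libraries. The group means were 2.501% ± 0.751 in CTRL and 2.503% ± 0.621 in DoxoR (SD, n = 4). Each group held libraries at both ends, and the means differed by far less than the spread of the animals. Mybpc1, which went another way, had the highest mean of the 9 slow genes per kilobase and so weighed most in this sum. It exceeded every other slow gene in CTRL 1, CTRL 4 and DoxoR 1 (129.5, 80.45 and 175.9 CPM per kilobase), and also in DoxoR 2. In CTRL 2, CTRL 3, DoxoR 3 and DoxoR 4 it was below Myl2. How far the spread and the group means depend on Mybpc1 was not tested. The median log2 difference between groups was 0.40 for the 14 fast genes and 0.46 for the 9 slow genes. With the muscle covariate it was -0.049 for fast genes, 6 of 14 above 0, and 0.17 for slow genes, 7 of 9 above 0. The sign of the slow minus fast difference depended on single libraries: it was 0.060 with all 8, -0.23 without DoxoR 4, -0.10 without CTRL 4 and -0.057 without CTRL 1.

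Among the 44 other skeletal muscle genes, 43 were above 0 and 1 below, with a median log2 difference of 0.48 (0.11 without CTRL 3), and 0 passed the threshold (edgeR). Of the 44, 1 had an unadjusted p under 0.05 (5.36% of all genes did) and in 1 every DoxoR library was above every CTRL library (1.64% of all genes), both times Hspb7. Hspb7, a small heat shock protein of muscle, was at 116, 126, 33.3 and 116 CPM in the CTRL libraries and 235, 133, 147 and 201 CPM in the DoxoR libraries. The lowest DoxoR library, DoxoR 2, was close to the highest CTRL library, CTRL 2. Its log2 difference was 0.87 ± 0.37 (unadjusted p = 0.0431, adjusted p = 0.856, edgeR), 0.54 without CTRL 3 and 0.58 with the muscle covariate. Cryab, another small heat shock protein, was at 118, 152, 42.6 and 118 CPM in the CTRL libraries and 222, 147, 127 and 196 CPM in the DoxoR libraries. Sarcolipin (Sln), an inhibitor of the calcium pump, was at 2.06, 2.75, 0.305 and 0.371 CPM in the CTRL libraries and 0.565, 6.19, 3.00 and 5.56 CPM in the DoxoR libraries. Cryab and Sln overlapped between the groups.

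Of 15 genes of denervated or regenerating muscle, 10 passed the filter, 7 of them above 0 and 3 below, with a median of 0.63. In edgeR 0 passed the threshold, and 2 of the 10 had an unadjusted p under 0.05, against 5.36% of all genes. The list summed to 163 to 182 CPM in CTRL and 164 to 180.1 CPM in DoxoR. Most of that sum came from the 3 genes below 0, named after their values were seen, which other cells of bone and marrow also express. Runx1, a transcription factor, was at 71.1, 58.8, 59.1 and 63.0 CPM in the CTRL libraries and 50.5, 63.4, 54.6 and 51.3 CPM in the DoxoR libraries. Ncam1, an adhesion molecule, was at 49.0, 44.0, 62.1 and 55.3 CPM in the CTRL libraries and 55.3, 57.8, 44.5 and 47.9 CPM in the DoxoR libraries. Gadd45a, a stress response gene, was at 28.1, 30.6, 41.7 and 39.1 CPM in the CTRL libraries and 26.0, 29.5, 42.6 and 29.4 CPM in the DoxoR libraries. Their groups overlapped, with log2 differences of -0.20 ± 0.11, -0.035 ± 0.14 and -0.13 ± 0.18. The 3 genes of smallest p were scarcer. Chrna1, the alpha subunit of the acetylcholine receptor, was at 0.525, 0.747, 0.229 and 0.540 CPM in the CTRL libraries and 1.305, 1.95, 0.626 and 1.04 CPM in the DoxoR libraries. Only DoxoR 3 reached into the CTRL range, and the log2 difference was 1.32 ± 0.43 (unadjusted p = 0.0113, adjusted p = 0.838, edgeR). Without CTRL 3, the lowest library for Chrna1, it was 1.01. Myogenin (Myog), a transcription factor of muscle differentiation, was at 0.337, 1.03, 0.102 and 0.439 CPM in the CTRL libraries and 0.913, 1.83, 0.889 and 0.825 CPM in the DoxoR libraries. CTRL 2 overlapped DoxoR, and the log2 difference was 1.33 ± 0.55 (adjusted p = 0.856, edgeR). Without CTRL 3, the lowest library for Myog, it was 0.90. Musk, the kinase that organises the neuromuscular junction, was at 3.37, 2.85, 0.559 and 3.34 CPM in the CTRL libraries and 6.96, 3.94, 2.54 and 6.30 CPM in the DoxoR libraries. It followed the muscle RNA more closely, with DoxoR 1 and DoxoR 4 high and CTRL 3 low.

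**Figure D5:**
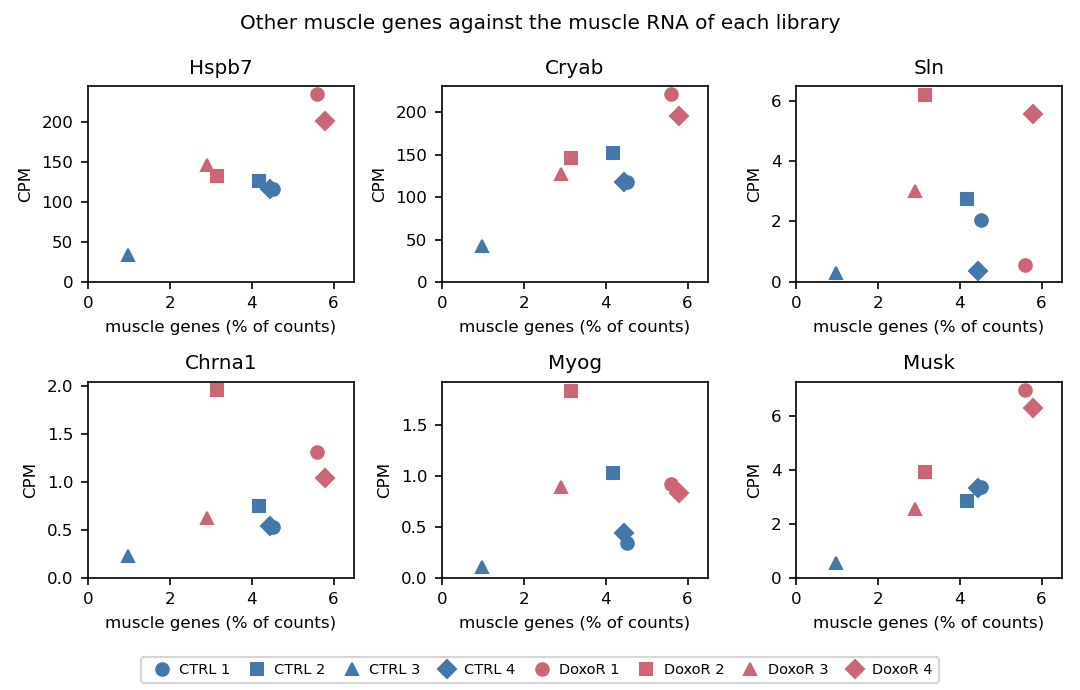
CPM of 6 muscle genes that are not among the 42 (vertical axes) against the percent of counts on the 42 muscle genes (horizontal axes), 1 point per library (blue CTRL, red DoxoR, symbols by replicate). Hspb7 is at 133 CPM or more in all DoxoR libraries and at 126 CPM or less in all CTRL libraries. Chrna1, Myog and Sln do not follow the muscle share across the libraries, although each is lowest in CTRL 3.

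The list of 18 other genes of the atrophy programme, which many tissues express, had 12 above 0 and 6 below, with a median of 0.14, and 0 passed the threshold (edgeR). Fbxo21, an F-box protein, was at 5.51, 4.34, 5.002 and 7.73 CPM in the CTRL libraries and 7.26, 8.38, 7.31 and 7.42 CPM in the DoxoR libraries. Fbxo30, the ligase MUSA1, was at 60.9, 76.2, 79.3 and 57.7 CPM in the CTRL libraries and 58.7, 50.8, 63.3 and 41.99 CPM in the DoxoR libraries. Eif4ebp1, a repressor of translation, was at 25.7, 28.4, 26.7 and 25.9 CPM in the CTRL libraries and 31.7, 28.6, 34.05 and 29.6 CPM in the DoxoR libraries. Fbxo21 and Fbxo30 overlapped between the groups, and Eif4ebp1 did not. Every DoxoR library was above every CTRL library for 2 of the 18 genes (1.64% of all genes), the other being Map1lc3b, an autophagy protein, at 111, 110.1, 103 and 112 CPM in the CTRL libraries and 126, 116, 123 and 118 CPM in the DoxoR libraries. An unadjusted p under 0.05 (edgeR) was found for 2 of the 18, against 5.36% of all genes. These were Fbxo21, above 0, and Fbxo30, below 0. The log2 differences of Fbxo21, Fbxo30 and Eif4ebp1 were 0.43 ± 0.18, -0.35 ± 0.16 and 0.22 ± 0.10, with adjusted p-values of 0.856 each (edgeR).

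Markers of tissues that share muscle genes or lie next to muscle were measured in the same libraries. Of 10 heart muscle markers, Nppa, Nppb and Myl7 were at 0 counts in all 8 libraries, and the list summed to 10.9 to 15.7 CPM in CTRL and 13.5 to 32.3 CPM in DoxoR. Smooth muscle markers summed to 112 to 272 CPM in CTRL and 177 to 347 CPM in DoxoR. Without Synpo2, which skeletal muscle also expresses, they summed to between 63.0 and 111 CPM in CTRL and between 71.1 and 109 CPM in DoxoR, with CTRL 3 the lowest. Tendon markers summed to 92.9 to 163 CPM in CTRL and 127 to 208 CPM in DoxoR, again lowest in CTRL 3. Adipocyte markers (261 to 424 CPM in CTRL and 250.9 to 449 CPM in DoxoR) and Schwann cell markers (66.3 to 78.0 CPM in CTRL and 65.7 to 75.2 CPM in DoxoR) were not lowest there, and neutrophil markers were highest there. The adipocyte sum was mostly Fabp4 and Adipoq. Over the 6 adipocyte markers the median log2 difference was 0.87 (0.79 without CTRL 3), and 0 passed the threshold (edgeR). Of the 6, 3 had an unadjusted p under 0.05 in edgeR (5.36% of all genes did). In 1, Retn, every DoxoR library was above every CTRL library (1.64% of all genes). Tendon and heart muscle markers had 1 gene each of 7 tested with an unadjusted p under 0.05 (edgeR). The tendon marker Comp was also higher in every DoxoR library than in any CTRL library. The heart marker Ryr2, scarce at 0.296 to 1.24 CPM, was lower in every DoxoR library than in any CTRL library. The share of all genes in that direction was not counted, so nothing is read from it. The part of tissue composition in the differences between groups was not tested beyond the muscle covariate.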

How the data were processed

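RNA-seq was made from the long bones of 8 mice. Per the labels' protocols, poly-A RNA was made into stranded libraries with molecular identifiers, which PCR amplified. The deposited values are expected counts per gene from the authors, all of them whole numbers. Of tools, the submitters' processing notes list RSEM 1.3.0 and STAR 2.5.3a, and of builds GRCh38, a human one, although the gene identifiers are murine. How strand and molecular identifiers were used, and which annotation, was not given in the sources used here; counts may hold PCR copies. Genes were filtered with filterByExpr (minimum count 10, minimum total 15), scaled by TMM and tested with edgeR 4.0.16 (R 4.3.3), two-sided, by the robust quasi-likelihood test with Benjamini-Hochberg adjustment over all genes at 0.05. SE came from the F statistic. DESeq2 1.42.0, limma-voom (limma 3.58.1), other scalings and filters, the muscle covariate, the replicate block and each library left out were alternatives, and the fit was tested on simulated data. The precision is set by the 4 mice a group, not by depth. Every-library values are given for 20 named members, for 6 more with the smallest unadjusted p and for those with the highest and lowest difference, and for up to 3 genes of each other muscle list with the smallest p. The members and lists were chosen with earlier results of these data known. Slow and fast genes were set by their textbook fibre type.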

Additional observations from a re-analysis of the deposited data

Results flagged for a closer look

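In each group of 4 libraries, a library was singled out when its gap to the nearest other as a part of the range of the group exceeded Dixon's 95% critical value. Chance does so for about 1 in 20 groups. Of 190 groups tested, 24 had such a library, and in 16 of them it was CTRL 3 at the low end. The values share libraries and are not independent.

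CTRL 3 stood apart from the other vehicle animals in the share of counts on the 42 muscle genes (0.972%). It also stood apart in the CPM of Acta1 (599), Myh2 (76.5), Myh4 (730.3), Ckm (502), Casq1 (51.9), Ttn (802), Neb (286), Actn3 (153), Tcap (83.6), Des (189), Ldb3 (47.0), Mybpc2 (116) and Ampd1 (13.1), and of Hspb7 (33.3). As a percent of the counts on the 42 genes, CTRL 3 was low for Ckm (5.69%) and high for Des (2.14%). The cause was not tested.

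Slow-fibre values singled out other animals: the slow share per kilobase was low in DoxoR 1 (1.58%), Tnni1 was high in CTRL 2 (36.4 CPM) and Myl2 was high in DoxoR 4 (134 CPM). In DoxoR 2, Myog (1.83 CPM), Fbxo21 (8.38 CPM) and Myh2 as a percent of the counts on the 42 genes (0.931%) were high. Xirp2 was high in DoxoR 3 on the same scale (6.21%).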

How the results depend on the processing

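With the muscle RNA covariate, 20 members changed sign, to log2 differences of -0.057 (Acta1), -0.16 (Myh2), -0.25 (Myh4), -0.12 (Ckm), -0.14 (Tnnt3), -0.051 (Tnnc2), -0.11 (Tnni2), -0.19 (Myl3), -0.088 (Mb), -0.090 (Casq1), -0.25 (Ttn), -0.12 (Neb), -0.056 (Cacna1s), -0.047 (Myoz1), -0.10 (Tpm2), -0.0046 (Mybpc1), -0.14 (Mybpc2), -0.062 (Eno3), -0.11 (Pygm) and -0.10 (Xirp2). Leaving out 1 library at a time changed the sign of 15 members, whose lowest and highest log2 differences were -0.13 and 0.39 for Myh2, -0.17 and 0.40 for Myh4, -0.030 and 1.13 for Myh7, -0.15 and 0.86 for Tnnt1, -0.043 and 0.51 for Tnnt3, -0.030 and 1.11 for Tnnc1, -0.014 and 0.54 for Tnni2, -0.22 and 0.72 for Myl3, -0.014 and 0.51 for Mb, -0.0087 and 0.53 for Casq1, -0.21 and 0.29 for Ttn, -0.056 and 0.47 for Neb, -0.028 and 0.50 for Tpm2, -0.021 and 0.55 for Pygm and -0.062 and 0.56 for Xirp2. Of these sign changes, 13 came without CTRL 3 and 6 without DoxoR 4. The number of members past the threshold was 0 under every alternative run: DESeq2, limma-voom, 3 other scalings, 2 other filters, the covariate, an adjusted p threshold of 0.1 and each library left out. The median log2 difference of the 42 was 0.41, between 0.058 (without CTRL 3) and 0.56 with a library left out, 0.54 with limma-voom, 0.0034 with the covariate and -0.048 with the covariate and without CTRL 3, a combination added after seeing the data. Libraries with the same replicate number in the labels deviated together in some pairs only. Their correlations were 0.34, -0.27, 0.43 and 0.09 for numbers 1 to 4. Between libraries of different numbers the correlations ran from -0.42 to 0.23. Such correlations cannot show whether the numbers pair the mice, and the main fit used no pairing. With the replicate block the median was 0.56, 0 members passed the threshold and 6 had an unadjusted p under 0.05 (edgeR). In the other muscle gene lists such genes went from 5 in the main fit to 30 with the block. The share of all genes in the blocked fit was not counted, so nothing is read from the 6. The lowest count of a member was 127, so counting error was small beside the spread between mice.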
